A study of Mus musculus with 5 samples.

Results

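The enzymes that make and desaturate fatty acids were followed through single-cell RNA libraries of advanced mouse pancreatic tumours. The set has 10 genes, Acly, Acss2, Acaca, Fasn, Elovl6, Elovl5, Scd1, Scd2, Fads1 and Fads2, chosen by name, and all 10 were found among the 12579 genes that the tables of both genotypes share. KPPCN tumours arise in the pancreatic lineage of mice that lack both copies of Trp53 and lack Nsdhl, a sterol dehydrogenase of late cholesterol synthesis, all through Pdx1-Cre. KPPC tumours carry the same Trp53 alleles and the same Cre and keep Nsdhl. These alleles are given as known for these strains, since the labels name the genotypes only by their abbreviations. Pdx1-Cre acts in the pancreatic lineage, so stromal and blood cells of a KPPCN tumour are not its intended targets. Mice were 7 to 8 weeks old, with 3 of each genotype stated, and 2 KPPCN libraries (1 and 2) and 3 KPPC libraries (C3, D3 and H2) were analysed here. The study asked how blocking cholesterol synthesis bears on TGFβ signalling and basal differentiation of pancreatic carcinoma.

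Cells make palmitate from acetyl-CoA. ACLY cleaves citrate to acetyl-CoA in the cytosol, ACSS2 makes it from acetate, ACACA (acetyl-CoA carboxylase) turns it into malonyl-CoA, and FASN (fatty acid synthase) builds the chain. ELOVL6 lengthens palmitate, ELOVL5 lengthens polyunsaturated chains, SCD1 and SCD2 place the first double bond in saturated chains, and FADS1 and FADS2 desaturate polyunsaturated chains. SREBP transcription factors, which respond to the sterol content of membranes, are known to drive many of these genes together with those of cholesterol synthesis, and pancreatic carcinomas are known to make fatty acids actively.

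Unique molecular identifiers (UMIs), which count RNA molecules near their 3′ ends, were summed per library and cell class and are given as counts per 1000000 UMIs of that class and library (CPM). The KPPCN libraries held 25746317 and 51838953 UMIs in 5147 and 1985 cells, and the KPPC libraries 49942730 to 77088231 UMIs in 2464 to 3663 cells. KPPCN 1 stood apart: its median cell held 2129 UMIs, against 21560 in KPPCN 2 and 17204 to 19019.5 in the KPPC libraries, and 47.6% of its cells were leukocyte-like, against 0.856% in KPPCN 2 and 1.60 to 2.65% in KPPC, although CD45-positive cells had been depleted. The 5 red cell markers in both tables, hemoglobin genes among them, summed to 1039 to 3749 CPM in each of the 4 populations compared below in KPPCN 1, against 79.0 to 294 CPM in KPPCN 2 and 0 to 316 CPM in KPPC. Libraries shared 0 to 6 cell barcodes a pair. In epithelial-like cells Nsdhl stood at 40.4 and 33.5 scaled CPM in KPPCN, against 32.2, 23.9 and 29.2 in KPPC. In fibroblast-like cells Nsdhl ran the other way, at 6.38 and 8.47 scaled CPM in KPPCN, against 9.24, 14.5 and 9.99 in KPPC (log2 difference -0.36, SE 0.18, limma, adjusted p = 0.617). In mesothelial-like cells the Nsdhl difference was -0.74 (SE 0.45), from 6 and 1 UMIs in KPPCN. Tags near the 3′ end need not lie in the deleted part of the gene, so the levels do not serve to check the genotype.

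Fasn lies on chromosome 11 (120805846 to 120824547, minus strand, GRCm38) and Elovl6 on chromosome 3 (129532355 to 129638495, plus strand). They are shown with the sequence before their starts because each KPPCN library exceeded every KPPC library for both genes in 2 cell populations, epithelial-like cells and the Krt18/Vim clusters described below. Of the 10 genes, 7 had a promoter window in the RefSeq table for GRCm38.p6, and the bases below are those before the annotated gene start, 5′ to 3′ on the gene's strand, with CCAAT or its reverse complement ATTGG in capitals.
Fasn, chr11:120824548-120824797, minus strand: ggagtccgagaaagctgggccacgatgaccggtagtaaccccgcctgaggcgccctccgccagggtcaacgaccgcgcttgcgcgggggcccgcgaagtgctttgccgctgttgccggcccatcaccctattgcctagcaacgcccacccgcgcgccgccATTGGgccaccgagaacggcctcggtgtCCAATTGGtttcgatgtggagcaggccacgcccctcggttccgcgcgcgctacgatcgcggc
Elovl6, chr3:129532136-129532354, plus strand: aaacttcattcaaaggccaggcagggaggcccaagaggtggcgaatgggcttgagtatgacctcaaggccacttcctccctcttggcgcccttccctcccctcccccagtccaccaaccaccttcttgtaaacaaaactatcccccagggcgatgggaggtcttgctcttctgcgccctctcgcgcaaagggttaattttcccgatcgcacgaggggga
Fasn held 3 matches of CCAAT on either strand, of which the last pair overlap by 2 bases, and Elovl6 held 0. CCAAT, searched on both strands, was found in 33.8% of 32851 windows of the 250 bases before a RefSeq start. Such a start need not be the outer end of the gene: of the 7 windows of these genes, that of Acaca lies wholly inside the annotated gene and that of Fads2 has 7 of its 250 bases outside it. TCACNCCAC, a sterol response element, was found in 0 of the 7 windows of these genes and in 1.05% of all windows, and the E-box CACGTG in 1 of the 7, that of Elovl5, and in 6.02% of all windows. A match is a description and not a binding site, and 0 matches say only that these letters are not in the window.

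Cell classes were named from marker genes after clustering without the 10 enzymes. Levels by class are a description, since the classes come from the same cells, and they cannot separate fewer molecules per cell from less of the gene relative to all RNA. Scd1 was highest in B/plasma-like cells, at 328 CPM, and among classes with 4 or more libraries its lowest median was 4.16 CPM, in endothelial-like cells. In erythroid-like cells (64 cells of KPPC C3) Scd1 stood at 2.44 CPM from 1 UMI, and in the 37 neutrophil-like cells of KPPC C3 at 0 of 94300 UMIs, which allows up to 31.8 CPM. In B/plasma-like cells, with at least 20 cells in KPPCN 1 only, Scd1 stood at 328 CPM (430 UMIs, exact Poisson 95% interval 298 to 360), with Scd2 at 18.3 CPM. In the T/NK-like cells of the same library Scd1 stood at 9.12 CPM (5.78 to 13.7) and Scd2 at 24.2 CPM. With every cell thinned to 1000 UMIs, 26.5% of 845 B/plasma-like cells (exact 95% interval 23.6 to 29.6) held a Scd1 UMI, against 0.594% of 1179 T/NK-like cells. The part of free RNA in either share was not tested. Without thinning these shares were 30.9% and 1.78%, at median depths of 1158 and 1769.5 UMIs. In KPPC H2, 9 B/plasma-like cells held 6 Scd1 UMIs of 13421, in KPPC C3 2 cells held 3 of 3563, and in KPPC D3 4 cells held 0 of 4875. All intervals cover counting error only.

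Scd1 was next highest in mesothelial-like cells, at 37.9 to 82.6 CPM over 5 libraries (median 77.7), then in fibroblast-like cells at 30.5 to 69.6 CPM (median 31.7), and it stood at 4.20 to 18.5 CPM in epithelial-like cells (median 6.46). Scd2, its paralog, showed another order, with medians of 145 CPM in epithelial-like, 142 in the Krt18/Vim clusters, 136 in fibroblast-like and 131 in endothelial-like cells. The ranges of these 4 overlap. The Krt18/Vim clusters are 4 unnamed clusters that hold Krt18 and Vim RNA with little Epcam and Dcn and are led by Cdkn2a or Hmga2. They have no class name of their own. Of each library's Scd1 plus Scd2 UMIs, Scd2 took 87.6 and 92.9% (KPPCN) and 96.9, 96.4 and 95.7% (KPPC) in epithelial-like cells, but 60.6 and 71.1% (KPPCN) and 54.0, 57.0 and 59.7% (KPPC) in mesothelial-like cells and 5.29% in the B/plasma-like cells of KPPCN 1. A share within a library does not depend on its scaling. Tags that match both paralogs could have been split, and how they were counted is not given in the sources used here.

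**Figure D1:**
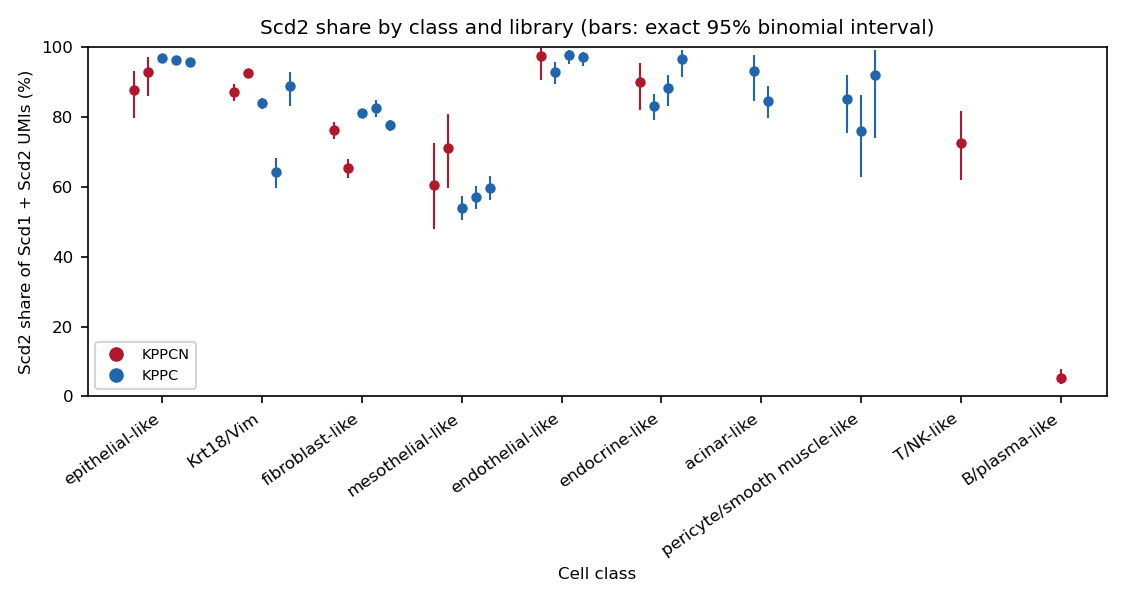
Scd2 share of Scd1 plus Scd2 UMIs (percent, vertical axis) by cell class, with exact 95% binomial intervals. Each point is 1 library with at least 20 cells of the class and at least 20 UMIs of the pair. Within a class, KPPCN lies left of KPPC. Epithelial-like points lie at 87.6% or higher, mesothelial-like points between 54.0 and 71.1%, and the B/plasma-like point at 5.29%.

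Acly was highest in fibroblast-like cells, at 117 to 177 CPM (median 160), with its range above that of the next class, pericyte/smooth muscle-like cells (95.3 to 108 CPM). Within every library it was higher in fibroblast-like than in epithelial-like cells, by 1.02 ± 0.23 on the log2(CPM + 5) scale (SD, n = 5). Fasn was the other way round, higher in epithelial-like than in fibroblast-like cells in 5 of 5 libraries by 0.77 ± 0.29 (SD), and its highest medians, 70.9 CPM in the Krt18/Vim clusters, 61.7 in T/NK-like and 60.4 in epithelial-like cells, had overlapping ranges. Acaca had medians of 13.4 to 21.7 CPM in the 4 populations with 5 libraries. Acss2 stood at 8.40 CPM in epithelial-like cells (7.30 to 9.98) and 1.81 CPM in the Krt18/Vim clusters (0.736 to 2.08), and these ranges do not overlap. It reached 15.5 CPM in the T/NK-like cells of KPPCN 1 and 25.8 CPM in those of KPPC C3, which rests on 3 UMIs in 42 cells. The highest Acss2 value was 53.0 CPM in the neutrophil-like cells of KPPC C3 (5 UMIs in 37 cells, exact Poisson 95% interval 17.2 to 124). The Acss2 gene overlaps 5 annotated genes, among them Ggt7, Gss and Acss2os on the opposite strand, and whether counting used strand is not given in the sources used here.

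Elovl6 was higher in epithelial-like than in fibroblast-like cells in 5 of 5 libraries, by 1.09 ± 0.43 on the log2(CPM + 5) scale (SD), with medians of 18.1 and 6.22 CPM. The epithelial clusters differed in it: cluster 5, led by the gastric genes Tff2 and Tff1, held 25.4 and 22.4 CPM in KPPCN and 24.4, 19.95 and 20.4 CPM in KPPC. Cluster 7, whose leading genes are Epcam and Krt7, held 13.3 and 36.7 CPM of Elovl6 in KPPCN, from 7 and 15 cells, and 6.65, 5.70 and 10.4 CPM in KPPC. Acss2 stood at 10.9 and 18.6 CPM (KPPCN) and 13.2, 12.2 and 13.1 CPM (KPPC) in cluster 5, and at 6.65 and 0 CPM (KPPCN) and 2.29, 2.48 and 2.19 CPM (KPPC) in cluster 7. Fads1 was highest in mesothelial-like cells, at 32.9 to 52.0 CPM (median 49.7), then in fibroblast-like cells at 25.6 to 36.9 CPM. Epithelial-like cells held 4.40 to 18.5 CPM of Fads1, lower than fibroblast-like cells in 5 of 5 libraries. Fads2 was low throughout, with class medians of at most 7.56 CPM, in acinar-like cells. Elovl5 stood at 52.9 to 74.0 CPM in endothelial-like and 28.7 to 41.3 CPM in epithelial-like cells.

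**Figure D2:**
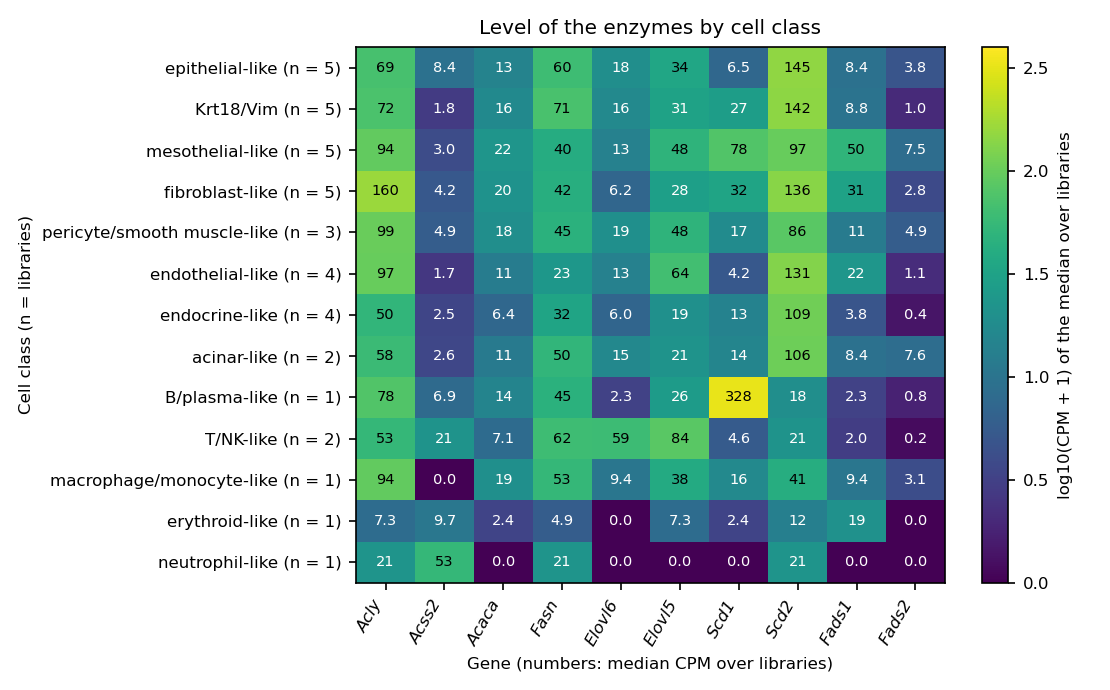
Median CPM over libraries of each enzyme (columns) in each cell class (rows, n is the number of libraries with at least 20 cells of the class and 50000 UMIs), with colour for log10(CPM + 1). Scd1 stands at 328 CPM in B/plasma-like cells and 6.46 CPM in epithelial-like cells, and Acly at 160 CPM in fibroblast-like cells.

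Across 39 points of class and library (13 classes), the genes whose pattern was most like the mean of the 10 enzymes were Arhgap35 (Pearson r = 0.825), Ebpl (0.822), Sil1 (0.816), Erp44 (0.813) and Acat1 (0.812). Acaca was nearest among the enzymes themselves (r = 0.811), and Acss2 ran against the mean (r = -0.301). Points share libraries and classes and differ in depth, so these are descriptions without a test.

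Between genotypes, none of the 10 enzymes passed limma's test with Benjamini-Hochberg adjustment at 0.05 in any of the 4 populations that held at least 20 cells in every library. A p above the threshold does not show that levels were alike. The 3 codes in the KPPC cell names were read as its 3 labelled samples, although no label ties a code to a sample, and every KPPC SD and p-value depends on that reading. The p-values rest on the spread between 5 libraries, for which the labels state mice but name no mouse per library. In fibroblast-like, mesothelial-like and epithelial-like cells and in the Krt18/Vim clusters alike, 0 genes passed, so the genotype difference of the enzymes is given by size and by whether libraries overlap.

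In epithelial-like cells (55 and 26 cells in KPPCN, 518, 853 and 595 in KPPC) the enzymes leaned higher in KPPCN. Fasn stood at 107 and 94.1 CPM in KPPCN tumours, against 57.4, 54.4 and 60.4 CPM in KPPC tumours. The groups did not overlap, and Fasn differed by 0.72 on the log2 scale (SE 0.19, limma, adjusted p = 0.614). Leaving out any 1 library kept the Fasn difference between 0.59 and 0.86. Scd1 stood at 18.5 and 11.8 CPM in KPPCN tumours (13 and 7 UMIs), against 6.03, 4.20 and 6.46 CPM in KPPC tumours, a log2 difference of 0.91 (SE 0.33, adjusted p = 0.614). With every cell thinned to 2000 UMIs, a Scd1 UMI was found in 0% of epithelial-like cells in KPPCN and 0.98% in KPPC. With at most 55 and 26 such cells in KPPCN, 0% cannot be told from the low KPPC share. Elovl6 stood at 22.8 and 30.3 CPM in KPPCN tumours, against 18.1, 12.7 and 16.0 CPM in KPPC tumours (0.58, SE 0.31, adjusted p = 0.677). Fads2 also did not overlap, at 5.70 and 5.04 CPM in KPPCN tumours from 4 and 3 UMIs, against 3.38, 2.85 and 3.81 CPM in KPPC tumours.

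The other epithelial values overlapped. Scd2 stood at 131 and 153 CPM in KPPCN tumours, against 189, 112 and 145 CPM in KPPC tumours, and Acly at 62.7 and 87.4 CPM in KPPCN tumours, against 69.5, 68.4 and 76.2 CPM in KPPC tumours. The log2 differences of Acly, Acaca, Scd2, Elovl5 and Acss2 lay between -0.09 and 0.20, and that of Fads1 was 0.60 with an SE of 0.45, which became 0.15 without KPPCN 1 and 1.02 without KPPCN 2. In all, 4 of the 10 enzymes had both KPPCN libraries above all KPPC libraries, against 15.2% of the 12082 genes tested, and 0 had both below, against 17.8%. Without KPPCN 2, where KPPCN 1 alone stands for its group, the median difference of the 10 was 0.42. With every cell thinned to 1000 UMIs, where 5 enzymes kept enough UMIs to be tested, 1 enzyme did not overlap, Fasn stood at 0.24 (SE 0.78) and Elovl6 at 1.69 (SE 1.08). The median difference of the 10 was 0.25, that of all genes tested -0.02. At adjusted p under 0.05, 0% of genes were called, and 974 genes (8.06%) had an unadjusted p under 0.05. Without KPPC H2, 3 genes were called, none of them among the enzymes.

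Some technical values move with this comparison. Cluster 5 made up 87.3% and 42.3% of the epithelial-like cells in KPPCN, against 61.8, 44.0 and 53.3% in KPPC. Within cluster 5 alone, Fasn stood at 81.7 and 70.8 CPM in KPPCN tumours (48 and 11 cells), against 50.3, 53.9 and 57.4 CPM in KPPC tumours, and within cluster 7 at 199 and 113 CPM in KPPCN tumours (7 and 15 cells), against 70.5, 54.8 and 64.1 CPM in KPPC tumours. Elovl6 overlapped within cluster 5 and did not within cluster 7. Igkc, the B/plasma marker in both tables, stood at 650 and 0 CPM in epithelial-like cells of KPPCN tumours, against 10.4, 0 and 0 CPM in KPPC tumours. Of the B/plasma markers read in the KPPCN table only, 8 of 8 were above 0 in KPPCN 1, Cd79a at 25.7 CPM, and 8 of 8 at 0 in KPPCN 2. Without KPPCN 1 the epithelial Scd1 difference was 0.64. Fibroblast markers (12) summed to 1884 and 477 CPM in KPPCN tumours, against 881, 384 and 248 CPM in KPPC tumours. Red cell markers (5 in both tables) summed to 3749 and 79.0 CPM in KPPCN tumours, against 156, 0 and 6.46 CPM in KPPC tumours, and acinar markers (7) to 140 and 3061 CPM in KPPCN tumours, against 67.4, 101 and 274 CPM in KPPC tumours. The 2 adipocyte markers in both tables summed to 99.8 and 63.9 CPM in KPPCN tumours, against 60.5, 46.2 and 62.1 CPM in KPPC tumours. Of the adipocyte markers read in the KPPCN table only, Adipoq, Plin1, Lep, Plin4 and Retn, 4 of 5 in KPPCN 1 and 5 of 5 in KPPCN 2 were at 0. The part of cell mix and free RNA in the other values was not tested.

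**Figure D3:**
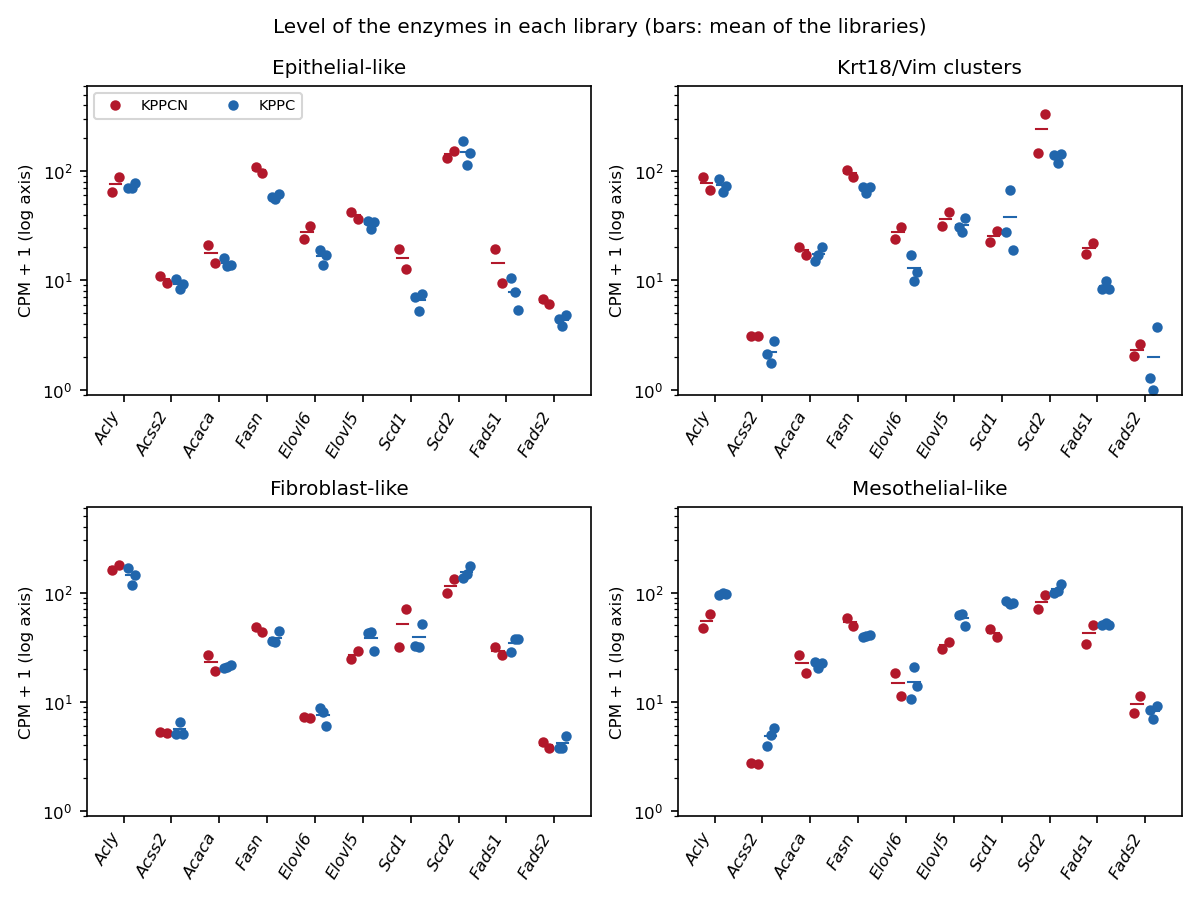
Level of each enzyme (CPM + 1, log axis) in each library in 4 cell populations, KPPCN in red left of KPPC in blue, with a bar at the mean of each genotype's libraries. In epithelial-like cells the KPPCN points of Fasn (107 and 94.1 CPM) lie above the KPPC points (54.4 to 60.4 CPM), and in mesothelial-like cells those of Scd1 (45.0 and 37.9 CPM) lie below (77.7 to 82.6 CPM).

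In the Krt18/Vim clusters (245 and 1437 cells in KPPCN, 426, 92 and 45 in KPPC), Fads1, Elovl6 and Fasn stood higher in both KPPCN libraries. Fads1 held 16.4 and 20.9 CPM in KPPCN tumours, against 7.39, 8.84 and 7.24 CPM in KPPC tumours. That is a log2 difference of 0.87 (SE 0.21, limma, adjusted p = 0.734), between 0.74 and 0.97 with any 1 library left out. Elovl6 held 23.0 and 29.8 CPM in KPPCN tumours, against 15.9, 8.84 and 10.9 CPM in KPPC tumours (0.86, SE 0.27, adjusted p = 0.809). Fasn held 101 and 87.4 CPM in KPPCN tumours, against 70.9, 61.5 and 69.7 CPM in KPPC tumours (0.43, SE 0.22). Acss2 also did not overlap, at 2.08 CPM in both KPPCN libraries against 1.12, 0.736 and 1.81 CPM in KPPC, from 2 UMIs each in D3 and H2.

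Scd2 in these clusters followed 1 library. It held 145 and 334 CPM in KPPCN tumours, against 140, 117 and 142 CPM in KPPC tumours, and its log2 difference of 0.71 (SE 0.34) became 0.15 without KPPCN 2 and 1.26 without KPPCN 1. The high value came from clusters 8 and 18, of which 806 of 818 and 318 of 328 cells were of KPPCN 2 and in which Scd2 stood at 388 and 260 CPM in that library. Scd1 ran the other way with wide spread, at 21.4 and 27.4 CPM in KPPCN tumours, against 26.8, 65.5 and 18.1 CPM in KPPC tumours. Acly, Acaca and Elovl5 differed by 0.03 to 0.19, and Fads2 had too few UMIs (0 to 66 a library) to be tested. Of the 9 enzymes tested, 4 had both KPPCN libraries above all KPPC libraries, against 11% of 11231 genes, and 0 had both below, against 9.08%. After thinning, 3 enzymes could be tested, 1 did not overlap and Fasn stood at 0.26 (SE 0.35). The median difference was 0.20, that of all genes 0.02. At adjusted p under 0.05, 0% were called, and 662 genes (5.89%) had an unadjusted p under 0.05. Without KPPCN 1, 86 genes were called, with none of the enzymes among them, and the adjusted p was 0.0689 for Scd2 and 0.0926 for Fads1, and without KPPC H2 1 gene was called.

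Different clusters make up this population in each library. Cluster 14 held 88.6% of it in KPPCN 1 and 0.278% in KPPCN 2, against 47.9, 79.3 and 57.8% in KPPC, while cluster 8 held 56.1% of it in KPPCN 2. Within cluster 14, Fasn stood at 102 CPM in KPPCN 1 (217 cells), against 74.5, 65.2 and 62.8 CPM in KPPC tumours, Elovl6 at 23.3 CPM in the cells of KPPCN 1, against 16.3, 8.79 and 9.66 CPM in KPPC tumours, and Fads1 at 15.4 CPM in the cells of KPPCN 1, against 7.60, 8.79 and 4.83 CPM in KPPC tumours. Within cluster 12, where the other 3 libraries had 20 cells or fewer, Fads1 stood at 11.9 CPM in 309 cells of KPPCN 2, against 4.05 CPM in 219 cells of KPPC C3, and the Fasn level was 46.9 CPM in the cells of KPPCN 2, against 40.0 CPM in those of KPPC C3. Without the clusters held almost wholly by 1 library, a setting chosen after seeing the data, the differences were 0.75 for Fads1, 0.67 for Elovl6, 0.39 for Fasn and -0.20 for Elovl5, which had been 0.19.

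Fibroblast-like cells (1590 and 286 in KPPCN, 1549, 385 and 739 in KPPC) showed no enzyme above in both KPPCN libraries. Elovl5 held 23.7 and 28.0 CPM in KPPCN tumours, against 41.7, 42.4 and 28.2 CPM in KPPC tumours, a log2 difference of -0.47 (SE 0.19, limma, adjusted p = 0.601). Scd2 held 97.4 and 131 CPM in KPPCN tumours, against 136, 146 and 176 CPM in KPPC tumours (-0.44, SE 0.22, adjusted p = 0.619). These were the 2 enzymes of 10 with both KPPCN libraries below all KPPC libraries, against 14% of 11934 genes, and 0 were above, against 13.5%. Elovl5 in KPPCN 2 and in KPPC H2 nearly met. Both differences were smaller, -0.31 and -0.27, without cluster 2, which held 75.0% of these cells in KPPCN 1, 2 cells in KPPCN 2 and 1 in KPPC H2. Scd2 became -0.17 without KPPCN 1 and -0.68 without KPPCN 2.

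Fasn in fibroblast-like cells stood at 47.6 and 42.1 CPM in KPPCN tumours, against 35.2, 33.9 and 43.2 CPM in KPPC tumours (0.21, SE 0.17), with overlap. Scd1 stood at 30.5 and 69.6 CPM in KPPCN tumours, against 31.7, 30.9 and 50.8 CPM in KPPC tumours, so that its difference of 0.24 became -0.31 without KPPCN 2 and 0.86 without KPPCN 1. Acly, Acaca, Elovl6, Fads1, Fads2 and Acss2 differed by -0.23 to 0.21, each with overlap. The median over the 10 enzymes was -0.04 and that over all genes 0.01. At adjusted p under 0.05, 0% of genes were called, and 990 (8.30%) had an unadjusted p under 0.05. Without KPPC C3, 27 genes were called and without KPPC H2 3, with none of the enzymes among them.

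Mesothelial-like cells (43 and 20 in KPPCN, 175, 179 and 180 in KPPC) leaned lower in KPPCN for 5 enzymes. Scd1 held 45.0 and 37.9 CPM in KPPCN tumours, against 82.6, 77.7 and 79.4 CPM in KPPC tumours, a log2 difference of -0.83 (SE 0.18, limma, adjusted p = 0.294). Without any 1 library this difference lay between -0.93 and -0.73. Acly held 46.8 and 62.0 CPM in KPPCN tumours, against 93.9, 98.4 and 96.9 CPM in KPPC tumours (-0.75, SE 0.19, adjusted p = 0.321), and Elovl5 29.5 and 34.4 CPM in KPPCN tumours, against 61.3, 63.1 and 48.2 CPM in KPPC tumours (-0.72, SE 0.23, adjusted p = 0.391). Scd2 and Acss2 had both KPPCN libraries below as well, Acss2 from 1 UMI in each. Fasn ran the other way, at 57.2 and 48.2 CPM in KPPCN tumours, against 38.3, 39.3 and 39.7 CPM in KPPC tumours (0.42, SE 0.21).

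Thus 5 of the 10 enzymes had both KPPCN libraries below all KPPC libraries in mesothelial-like cells, against 19.7% of 11270 genes, and 1 had both above, against 17%. The median difference was -0.29, that of all genes -0.03. At adjusted p under 0.05, 0% were called, and 1160 genes (10.3%) had an unadjusted p under 0.05. Without KPPC H2, 9 genes were called and without KPPC C3 1, with none of the enzymes among them. The Acly value depended on where the class was drawn: at resolution 2, which put 99 and 42 cells of KPPCN and 254 to 380 of KPPC in it, the difference was 0.14, whereas Scd1 stayed at -0.84 and Fasn was 0.17. After thinning to 1000 UMIs, Scd1 stood at -0.72 (SE 0.68) and Fasn at 1.45 (SE 1.16). Fibroblast markers (12) summed to 10380 and 11681 CPM in KPPCN tumours, against 17540, 15851 and 16085 CPM in KPPC tumours, and their part in the enzyme values was not tested.

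**Figure D4:**
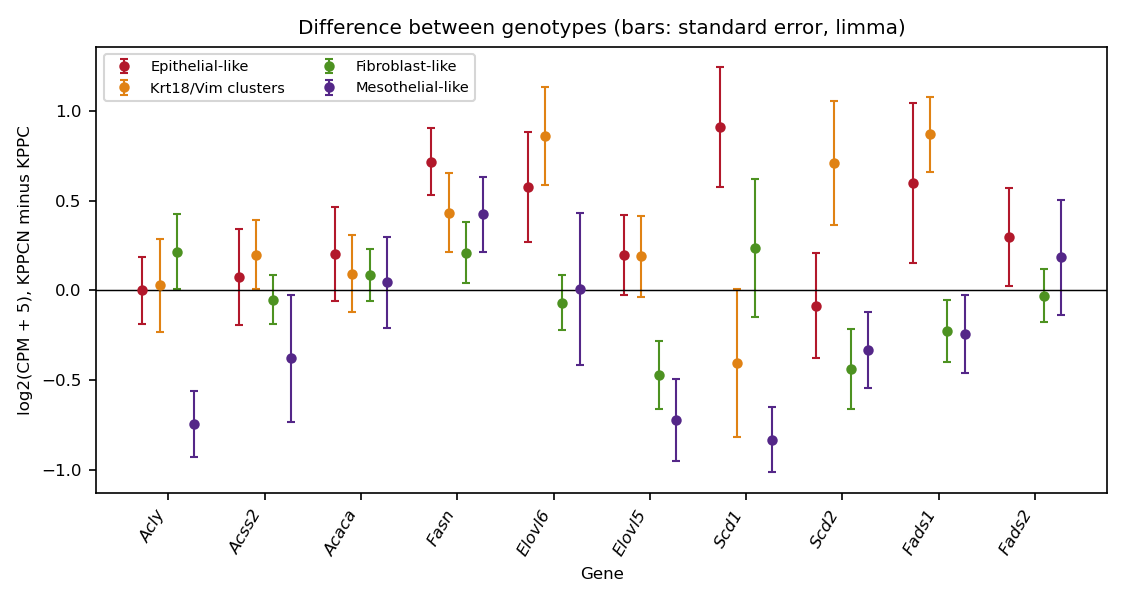
Difference of each enzyme between genotypes on the log2(CPM + 5) scale, KPPCN minus KPPC, in 4 cell populations, with standard errors from limma. Fasn lies above 0 in all 4 (0.21 to 0.72), Scd1 lies at 0.91 in epithelial-like and -0.83 in mesothelial-like cells, and Fads2 has no value in the Krt18/Vim clusters.

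Fasn and Acaca had positive differences in all 4 populations, 0.21 to 0.72 for Fasn and 0.045 to 0.20 for Acaca, whose sign changed in each of the 4 without KPPCN 1. Whether the genotype difference itself was larger in epithelial-like than in fibroblast-like cells was tested on the within-library difference between both classes. It was larger by 0.50 for Fasn (SE 0.18, limma, adjusted p = 0.365), 0.63 for Elovl6 (SE 0.20, adjusted p = 0.322), 0.65 for Elovl5 (SE 0.26, adjusted p = 0.411), 0.61 for Scd1 (SE 0.49) and 0.81 for Fads1 (SE 0.37, adjusted p = 0.456), where Fads1 became 0.43 without KPPCN 1. Acly stood at -0.22 (SE 0.22), Scd2, Fads2, Acss2 and Acaca lay between 0.11 and 0.34, and none of the 10 passed. For Fasn the KPPCN libraries stood 1.18 and 0.96 above their own fibroblast-like cells, against 0.67, 0.65 and 0.40 in KPPC, without overlap. Of 11504 genes, 0% were called and 1322 (11.5%) had an unadjusted p under 0.05, whereas 821 were called without KPPCN 1 and 812 without KPPCN 2. Among those called without KPPCN 2 was Scd1, at 1.47 (adjusted p = 0.0333), against -0.26 without KPPCN 1. Between the Krt18/Vim clusters and fibroblast-like cells, a test added after seeing the data, the differences were 1.14 for Scd2, 1.11 for Fads1 and 0.96 for Elovl6 (SE 0.28, 0.29 and 0.25, adjusted p = 0.84 for each), with 0% of 11006 genes called and 5.76% at an unadjusted p under 0.05. Between epithelial-like and mesothelial-like cells, also added later, Scd1 differed by 1.72 (SE 0.26, adjusted p = 0.0982), with 0% of 10990 genes called and 20.2% at an unadjusted p under 0.05. A further contrast added later set epithelial-like cells against the Krt18/Vim clusters. There Scd1 differed by 1.25 (SE 0.57, limma, adjusted p = 0.656) and Scd2 by -0.79 (SE 0.33, adjusted p = 0.633). The other enzymes with a value lay between -0.33 and 0.26, and none passed.

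Over all cells of a library, where the mix of cells differs, Fasn stood at a log2 difference of 0.55 (SE 0.16, limma, adjusted p = 0.213) and Elovl6 at 0.47 (SE 0.20, adjusted p = 0.324), which became 0.17 without KPPCN 2. Both had the KPPCN libraries above all KPPC libraries, as had 18.4% of 12558 genes. Only 1 gene (0.00796%) was called, and 16.2% had an unadjusted p under 0.05. Without KPPCN 1, 3249 genes were called, among them Fasn (0.69, adjusted p = 0.0289), Elovl6 (0.74, 0.0194) and Scd2 (1.19, 0.0303), and without KPPCN 2, 40 were called, with none of the enzymes among them. The count was 0 without KPPC C3 and 0 without KPPC D3.

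The balance within enzyme pairs was compared by two-sided exact permutation over libraries, where 2 against 3 libraries cannot give a p below 0.1. The Scd2 share of Scd1 plus Scd2 was 90.2 ± 3.70% in KPPCN and 96.4 ± 0.58% in KPPC in epithelial-like cells (SD, n = 2 and 3, exact p = 0.1), 70.7 ± 7.71% in KPPCN and 80.4 ± 2.54% in KPPC in fibroblast-like cells (exact p = 0.1), and 65.8 ± 7.39% in KPPCN and 56.9 ± 2.86% in KPPC in mesothelial-like cells (exact p = 0.1). In the Krt18/Vim clusters it was 89.8 ± 3.71% in KPPCN and 78.9 ± 13.0% in KPPC, with overlap (exact p = 0.5). The Elovl5 share of Elovl5 plus Elovl6 was 59.1 ± 7.49% in KPPCN and 67.3 ± 2.08% in KPPC in epithelial-like cells (exact p = 0.1), and 57.4 ± 0.56% in KPPCN and 72.3 ± 6.38% in KPPC in the Krt18/Vim clusters (exact p = 0.2). It was also lower in KPPCN in fibroblast-like cells, 80.7 ± 2.07% against 85.0 ± 0.76% (exact p = 0.1), and in mesothelial-like cells, 69.9 ± 9.87% against 80.4 ± 5.48% (exact p = 0.3). Within fibroblast cluster 0 the Elovl5 share was 83.7% in KPPCN and 77.2% in KPPC (exact p = 0.4), and within cluster 6 89.5% and 89.6%. The Scd2 share was 69.3% in KPPCN and 69.2% in KPPC within cluster 0, and 69.7% and 82.0% within cluster 6 (exact p = 0.2). The part of cluster mix in the fibroblast-like shares was not tested. The Fads1 share of Fads1 plus Fads2 was 82.7 ± 0.18% in KPPCN and 87.5 ± 2.03% in KPPC in mesothelial-like cells (exact p = 0.1). The KPPCN values there rest on 19 and 29 Fads1 UMIs and 4 and 6 Fads2 UMIs, so their small SD does not show the counting error. In fibroblast-like cells the Fads1 share was 90.2 ± 0.03% in KPPCN and 91.4 ± 1.36% in KPPC (exact p = 0.3). Single libraries moved these differences. Without KPPCN 1 and without KPPCN 2, the Scd2 share differed by -3.49 and -8.73 points in epithelial-like, -15.1 and -4.20 in fibroblast-like and 14.1 and 3.69 in mesothelial-like cells, and the Elovl5 share by -13.5 and -2.89 points in epithelial-like cells. In the Krt18/Vim clusters the Scd2 share differed by 3.5 points without KPPC D3. The family held 23 comparisons of this kind, and 0.1 is the smallest p any of them can give, so none passes with or without adjustment. After thinning to 1000 UMIs, a Fasn UMI was found in 5.70 ± 2.82% of epithelial-like cells in KPPCN and 4.54 ± 1.45% in KPPC (exact p = 0.6), and at 2000 UMIs in 17.8 ± 3.05% in KPPCN and 8.98 ± 1.26% in KPPC (exact p = 0.1). At 1000 UMIs it was found in 8.65 ± 1.32% of cells of the Krt18/Vim clusters in KPPCN and 6.22 ± 1.62% in KPPC (exact p = 0.3). Unthinned, these shares were 49.97 ± 21.8% in KPPCN and 56.9 ± 0.55% in KPPC in epithelial-like cells (exact p = 0.7) and 57.5 ± 9.14% in KPPCN and 51.4 ± 7.13% in KPPC in the Krt18/Vim clusters (exact p = 0.4).

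Related gene lists were read in the same fits, and 0 of their genes passed the adjusted threshold in the 4 populations. Enzymes of cholesterol synthesis (19 genes, Nsdhl among them) stood higher in KPPCN for 19 of 19 in epithelial-like cells, against 48% of all genes, with a median log2 difference of 0.58 and both KPPCN libraries above all KPPC libraries for 13, against 15.2% of all genes. Fdps, which makes farnesyl diphosphate, had the smallest p of the list, at 0.92 (SE 0.23, limma, adjusted p = 0.614), and Pmvk, a kinase of the mevalonate pathway, stood at 1.09 (SE 0.28, adjusted p = 0.614). In the Krt18/Vim clusters 18 of 19 were higher, against 52.7% of all genes (median 0.29), and Fdps stood at 1.29 (SE 0.28, adjusted p = 0.68). In fibroblast-like cells 0 of 19 were higher, against 51.1% of all genes (median -0.41), with both KPPCN libraries below for 8, against 14% of all genes. In mesothelial-like cells 7 of 19 were higher, against 47.3% of all genes (median -0.16). Fatty acid oxidation genes were higher for 7 of 21 in epithelial-like cells (median -0.22), 5 of 21 in the Krt18/Vim clusters (-0.10), 4 of 21 in fibroblast-like cells (-0.13) and 10 of 21 in mesothelial-like cells (-0.04), against the same shares of all genes.

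For every count below, the share of all genes that were higher was 48% in epithelial-like cells and 52.7% in the Krt18/Vim clusters. It was 51.1% in fibroblast-like and 47.3% in mesothelial-like cells, and counts near these shares say nothing particular of a list. Other fatty acid synthesis genes were higher for 10 of 22 in epithelial-like cells (median -0.06), 12 of 20 in the Krt18/Vim clusters (0.05), 3 of 20 in fibroblast-like cells (-0.14) and 10 of 21 in mesothelial-like cells (-0.06). Mecr and Mcat, enzymes of mitochondrial fatty acid synthesis, stood at log2 differences of -0.58 and -0.54 in epithelial-like cells, and Mid1ip1, a partner of acetyl-CoA carboxylase, stood at -0.81 in fibroblast-like cells (SE 0.20, adjusted p = 0.601). Among the 14 regulators tested, 10 were higher in epithelial-like cells (median 0.11), 6 in the Krt18/Vim clusters, 5 in fibroblast-like and 3 in mesothelial-like cells. In epithelial-like cells Insig1, an SREBP retention factor that SREBP induces, stood at 28.8 and 31.9 scaled CPM in KPPCN, against 22.0, 15.4 and 27.5 in KPPC, with a difference of 0.44 (SE 0.39). Glycerolipid genes were higher for 5 of 11 in epithelial-like cells, 4 of 11 in the Krt18/Vim clusters and 5 of 11 each in fibroblast-like and mesothelial-like cells. Uptake genes were higher for 7 of 10 in epithelial-like cells (median 0.25), 6 of 8 in the Krt18/Vim clusters, 4 of 10 in fibroblast-like and 3 of 10 in mesothelial-like cells.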

How the data were processed

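Single-cell RNA was captured by the 10x 3′ V3 chemistry after depletion of dead and CD45-positive cells, with about 6000 cells loaded and 98-base reads, per the labels' protocols. Cell Ranger 2.1.0, Seurat 3.0.2, R 3.5.1 and GRCm38 are listed in the submitters' processing notes. The authors deposited, per genotype, the natural log of 1 plus UMIs per 10000 of a cell, and 100% of values came back as whole UMIs within 0.01. The KPPC table holds 12579 genes and that of KPPCN 31053, and the 12579 shared genes, with 99.3% of KPPCN UMIs, were used.

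Cells needed 500 genes and at most 20% mitochondrial UMIs, which left out 801 of 17771 barcodes, all of KPPCN. Scrublet's own threshold marked 42 cells (0.247%) and did not work, so the 515 cells (3.03%) with the highest scores were left out, at 0.8% per 1000 cells. The 16455 cells left were clustered (scanpy 1.11.5, leidenalg 0.10.2, 2000 variable genes without the enzymes, 30 components, resolution 1) into 29 clusters. Of these, 19 were named from markers by a rule set after the clusters were seen, and 4 were grouped by Krt18 and Vim level.

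Another allele that both genotypes share is not reported here. KPPC cell names carry the codes C3, D3 and H2, each taken as 1 library without a matched label. UMIs were summed per library and class. Library totals were scaled by a trimmed mean (30%), and limma 3.58.1 (R 4.3.3) with precision weights tested log2(CPM + 5), KPPCN minus KPPC, for genes with about 10 UMIs at the median total and 15 over all libraries, with Benjamini-Hochberg adjustment at 0.05. CPM in the text are unscaled unless called scaled. Fold changes on this scale understate those of low genes. Tags were not divided by gene length, since 3′ tags do not grow with it. The fits were tested on simulated data. Shares and cell shares were compared by exact permutation (10 splits).

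All 10 enzymes are named in each population, and other genes come from 6 lists, with at most the 4 smallest p per list. The enzymes, lists and tests were chosen with earlier results of these data known. Alternatives were pseudocount, filter, scaling, weights, thinning, cell filter, resolution, clustering genes and leaving out each library. Leaving out clusters of 1 library or leukocytes, and 3 more class contrasts, were added after seeing the data.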

Additional observations from a re-analysis of the deposited data

Results flagged for a closer look

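Scd1 lay on opposite sides in 2 cell classes. Both KPPCN libraries were above all KPPC libraries in epithelial-like cells and both below in mesothelial-like cells, and the log2 differences of both classes lay 1.743 apart. The difference between the classes, tested after the data were seen, was 1.72 (SE 0.26, limma, adjusted p = 0.0982, 0 of 10990 genes called, 20.2% at an unadjusted p under 0.05). The epithelial-like values rest on 13 and 7 UMIs in KPPCN. The share of epithelial-like cells with a Scd1 UMI was 0% in KPPCN after thinning, at 1000 UMIs from 54 and 26 cells. So few cells cannot tell 0% from the low KPPC shares. At 1000 UMIs the share was 0% in KPPCN and 0.28 ± 0.14% in KPPC (SD, exact permutation p = 0.2), and at 2000 UMIs 0% and 0.98 ± 0.22% (exact permutation p = 0.1). Unthinned, it was 11.2 ± 0.45% in KPPCN and 10.4 ± 0.82% in KPPC (exact permutation p = 0.4). In mesothelial-like cells the share was lower in KPPCN at each depth.

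Acss2 was above in the Krt18/Vim clusters and below in mesothelial-like cells, 0.5786 apart, and this difference was not tested. The mesothelial-like values rest on 1 UMI in each KPPCN library.

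Some related genes are read in the KPPCN table only, so they have no KPPC value here, and each exceeded the 3 UMIs that a count of 0 allows. Elovl4 held 142 UMIs, of which 137 were in KPPCN 2. Acacb held 60, Elovl2 14, Scd4 9, Scd3 5, Thrsp 5 and Elovl3 4 UMIs. Groups of 2 and 3 libraries are too small for a test of single outlying libraries.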

How the results depend on the processing

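No paired analysis was possible because the KPPC columns carry the codes C3, D3 and H2 and no replicate numbers. Of 1051 values over 93 results, 70 changed sign, and the cause was not tested. Medians and counts are among the 1051 but not in the 70, although the mesothelial-like median went from -0.29 to 0.084 on thinning. Clustering at resolution 0.5 could not be fitted for epithelial-like and mesothelial-like cells, with 10 and 12 cells in KPPCN 2.

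In epithelial-like cells Acly, -0.00029 as reported, was 0.040 without scaling, 0.027 with median-of-ratios scaling, 0.0052 without weights, 0.051 with at least 1000 genes a cell, 0.12 at resolution 2, 0.048 with the enzymes in the clustering and 0.0021 without clusters of 1 library. Scd2 was 0.031 at resolution 2. Thinning to 1000 UMIs left 5 enzymes to be tested. Of these, 1 was above, against 4 of 10 as reported, and their median was 0.082, against 0.25 over the 10. The share of all genes above after thinning is not given here. In the Krt18/Vim clusters thinning also left fewer enzymes to be tested, of which 1 was above, against 4 of 9 as reported, and took Acly to -0.30. Elovl5 in this population was -0.20 without clusters of 1 library.

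In fibroblast-like cells thinning gave 22 genes called, 1 enzyme above and Scd1 at -0.11. With at least 1000 genes a cell 1 enzyme was above, Fads2 was 0.069 and Acss2 0.042, and at resolution 2 there was 1 gene called and Fads2 was 0.059. Fads2 was 0.074 without clusters of 1 library.

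In mesothelial-like cells the median, -0.29, was -0.31 at a pseudocount of 1, -0.33 without scaling and -0.27 with median-of-ratios scaling. The median was 0.084 thinned, over the 5 enzymes tested, -0.16 with at least 1000 genes a cell, -0.17 at resolution 2 and -0.18 with the enzymes kept. Genes called were 1 without scaling, 4 without weights and 1 thinned. Enzymes above were 0 with at least 1000 genes a cell and 0 at resolution 2. Elovl6 was -0.0026 without the filter, -0.027 without scaling, -0.22 with at least 1000 genes a cell, -0.28 at resolution 2 and -0.31 with the enzymes kept. Acly was 0.14 and 0.15 in the same last 2 settings, Fads2 -0.092 with at least 1000 genes a cell, and thinned Scd2 was 0.084 and Fads1 0.81.

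Over all cells, genes called were 3 at a pseudocount of 1, 3 without scaling, 108 thinned and 0 without leukocytes. Thinned, the median was 0.20 over the 9 enzymes tested, Elovl5 was 0.062 and Acss2 0.021. With at least 1000 genes a cell Acly was 0.028 and Scd1 -0.084, and without leukocytes Acly was 0.031, Scd1 -0.064 and Fads1 0.016. The share of cells with a Fasn UMI differed by -6.91 points unthinned in epithelial-like cells, by -0.651 at 2000 UMIs and -6.75 unthinned in fibroblast-like cells, and by -2.57 at 2000 UMIs in mesothelial-like cells, and that of Scd2 by 1.24 at 2000 UMIs in epithelial-like cells.

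Leaving out each library in turn, genes called ranged over 0 to 86 in the Krt18/Vim clusters, 0 to 3249 over all cells, 0 to 821 for the epithelial against fibroblast contrast, 0 to 3 in epithelial-like, 0 to 27 in fibroblast-like and 0 to 9 in mesothelial-like cells. Enzymes above ranged over 4 to 8 in epithelial-like, 0 to 2 in fibroblast-like and 1 to 3 in mesothelial-like cells and 2 to 5 over all cells. With a library left out a group is smaller, so the shares of all genes given above do not apply to these counts. The matching shares are not given here, so the counts say nothing particular of the enzymes. Medians ranged over 0.17 to 0.42 in epithelial-like and -0.45 to -0.22 in mesothelial-like cells. Where the sign changed, ranges were, in epithelial-like cells, -0.16 to 0.19 for Acly, -0.048 to 0.46 for Acaca, -0.28 to 0.11 for Scd2 and -0.024 to 0.20 for Acss2. In the Krt18/Vim clusters they were -0.18 to 0.24 for Acly, -0.012 to 0.24 for Acaca and -0.67 to 0.010 for Scd1. In fibroblast-like cells they were -0.081 to 0.25 for Acaca, -0.31 to 0.86 for Scd1, -0.073 to 0.056 for Fads2 and -0.15 to 0.020 for Elovl6. In mesothelial-like cells they were -0.18 to 0.28 for Acaca, -0.26 to 0.27 for Elovl6 and -0.52 to 0.045 for Fads1. Over all cells they were -0.24 to 0.12 for Elovl5, -0.22 to 0.20 for Acly, -0.39 to 1.19 for Scd2, -0.15 to 0.0074 for Fads1, -0.29 to 0.014 for Fads2 and -0.39 to 0.13 for Acss2. For the contrast they were -0.26 to 1.47 for Scd1 and -0.0065 to 0.25 for Acss2. Depth limits the epithelial-like and mesothelial-like KPPCN values most, which rest on 20 to 55 cells a library.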
